A study of Homo sapiens with 6 samples.

Results

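The 10 genes described here belong to the response of cells to low oxygen: HIF1A, EPAS1, EGLN1, EGLN3, CA9, ADM, NDRG1, BNIP3, ANKRD37 and PDK1. They were taken by name, without a threshold on any measured value, but with earlier results of these data known. All 10 were found among the 19973 genes of the table and among the 12874 genes with enough reads to be tested. RNA-seq was performed in OVCAR3, an established human high-grade serous ovarian carcinoma line. Cells transfected with a control short hairpin RNA (shNC, 3 libraries) were compared with cells transfected with a short hairpin against NUF2 (shNUF2, 3 libraries), a subunit of the kinetochore complex that attaches chromosomes to spindle microtubules. The sample labels and the methods of the study describe plasmid transfection, and the design text of the series adds puromycin treatment to obtain stable lines, so the time between transfection and harvest cannot be told from these sources. Cells were grown in RPMI-1640 with serum at 37 °C and 5% CO2. No low-oxygen treatment was stated for either group, and the oxygen level, the cell density at harvest and the time of harvest were not given in the sources used here. The sequencing rests on 1 hairpin against NUF2 in 1 cell line, and nothing states that libraries of a group came from separate cultures, so the p-values measure the spread between these libraries, which may be technical.

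Cells read oxygen through hypoxia-inducible factors (HIFs). HIF1A and EPAS1 encode the HIF-1α and HIF-2α subunits. In oxygen these proteins are hydroxylated by the prolyl hydroxylases of the EGLN family, captured by the VHL ubiquitin ligase and degraded. When oxygen falls they persist, pair with ARNT and bind short DNA elements near their targets. CA9, ADM, NDRG1, BNIP3, ANKRD37, PDK1 and EGLN3 are well-known targets, and EGLN1 and EGLN3 close a feedback loop because they are both sensors and targets. The main regulation of the α subunits is at the protein level, which was not measured here.

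The libraries held 13057534 to 16995452 reads on genes. NUF2 itself fell from 903, 1096 and 1092 reads in shNC to 281, 290 and 384 reads in shNUF2, a log2 fold change of -1.51 (SE 0.077, adjusted p = 2.17e-15). The change reached far beyond the hypoxia genes: 33.9% of the genes tested were called higher in shNUF2 and 33.8% lower at an adjusted p under 0.05 (quasi-likelihood test of edgeR, p-values adjusted by Benjamini and Hochberg's method for 12874 genes). Differentially expressed genes (DEGs) are here those with a log2 fold change beyond 1 in either direction and an unadjusted p under 0.05, which were 9.41% higher and 4.16% lower. The log2 scale of that fold threshold is a reading adopted here, since the methods of the study do not name the scale. Of the 10 ovarian carcinoma markers examined, WT1 had at most 7 reads and CDH1 at most 33, while FOLR1, MSLN and the keratins were abundant. Of the 9 that could be tested, KRT8 (log2 fold change 1.04), EPCAM (0.69), PAX8 (0.64) and KRT18 (0.55) were called higher, and MUC16 (-0.75), MSLN (-0.75), FOLR1 (-0.31) and KRT7 (-0.22) lower. EPCAM lost its call without shNUF2 replicate 1 (0.51, adjusted p = 0.0780), and KRT7 under DESeq2's Wald test (adjusted p = 0.0742). Their summed level was 6786 to 7288 normalized counts (CPM, reads of the gene relative to the size of the library) in shNC and 6092 to 6338 in shNUF2, but FOLR1 made up most of it, and without FOLR1 the sum was 1521 to 1625 in shNC and 1664 to 1774 in shNUF2. Of 14 markers of other cell types, 7 stayed under 10 reads in every library, HBB and ALB were at 0 in all, and the sum was 87.9 to 95.04 CPM in shNC and 77.4 to 85.3 in shNUF2, mostly COL1A1. PTPRC and CDH5, which mark leukocytes and endothelium, had 0 to 4 reads in shNC and 6 to 27 in shNUF2. The part of these markers in the results below was not tested.

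Of the 10 hypoxia genes, 9 were called higher in shNUF2 and 0 lower, with EPAS1 as the exception. The share of all genes tested that was called higher was 33.9%. ADM, BNIP3, NDRG1, EGLN3 and ANKRD37 were DEGs, 5 of 10 against 9.41% of all genes. With limma on log2(FPKM + 1) the count was 3 of 10, and the DEGs higher among all genes numbered 430 rather than 1212. With TREAT, which tests for a change beyond the threshold, the count was also 3. The number of all genes higher with TREAT is not given here, so that count has no background beside it. The median log2 fold change of the 10 genes was 0.82, beside -0.01 over all genes tested. For 8 of the 10, every shNUF2 library was above every shNC library. Among all genes, 35.2% were non-overlapping and higher and 35.4% non-overlapping and lower. The exact permutation test of 3 against 3 libraries cannot go below p = 0.10, which these 8 genes reached. Together the 10 genes took 0.407, 0.333 and 0.342% of all reads in shNC and 0.788, 0.726 and 0.750% in shNUF2, and NDRG1 alone supplied most of that.

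**Figure D1:**
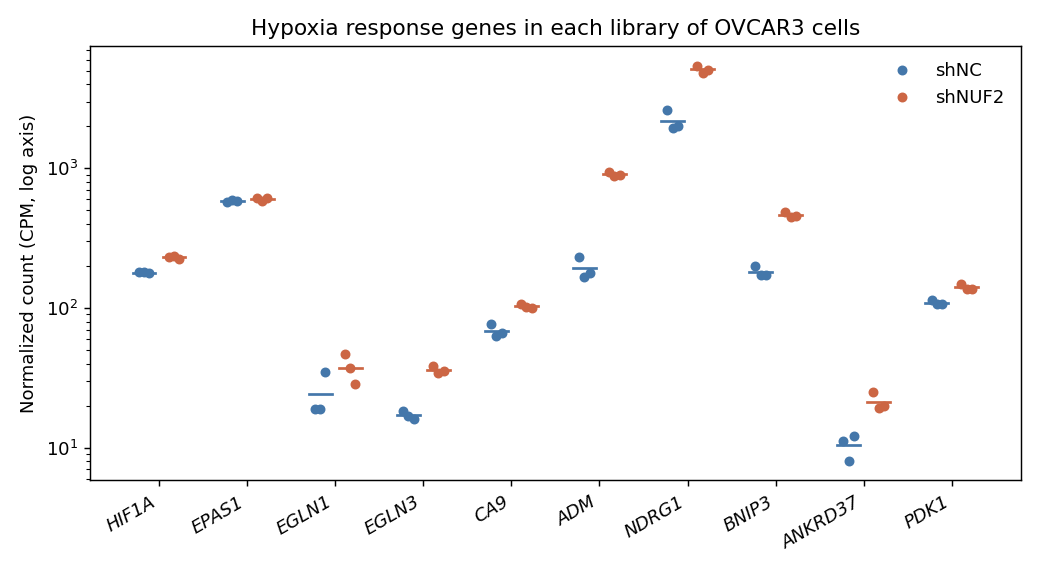
TMM-normalized counts (CPM, log axis) of the 10 hypoxia response genes in each of the 3 shNC and 3 shNUF2 libraries, 1 point per library. All genes except EPAS1 and EGLN1 have 2 separate groups of points, and ADM has the widest gap, with 167 to 233 CPM in shNC and 879 to 939 in shNUF2.

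HIF-bound DNA elements share the core letters ACGTG or GCGTG, so the RefSeq promoters (GRCh38.p14, from 250 bases before to 50 after each annotated start) were searched for these letters on both strands. The table held 9 of the 10 genes with 11 starts. NDRG1, which was also a DEG, had no entry and was not searched. The core was present at 8 of 9 genes (88.9%), beside 69.6% of genes tested and 52.4% of all genes with a promoter entry. Per start, it was present at 8 of 11 (72.7%), beside 60.0% and 48.4%. ACGTG alone was found at 5 of 9 genes (55.6%), beside 32.0% and 24.9%. With 9 genes these shares are a description, and a match is not evidence of binding. The 30-base windows below show 6 promoters with the core or its complement in capitals. ADM, BNIP3 and ANKRD37 are shown because they were the DEGs with a match, and CA9, PDK1 and EGLN1 because they carried the ACGTG form and changed less.
ADM, chr11:10304959-10304988, plus strand, 114 to 85 bases before the start: agagcaggagcgcGCGTGgctgaggaaaga
BNIP3, chr10:131982041-131982070, minus strand, 147 to 118 bases before the start: cgcgCACGCgccgCACGTGccaCACGCacc
ANKRD37, chr4:185396676-185396705, plus strand, 165 to 136 bases before the start: ctcCACGTGccagtgtttgtgtACGTGcgg
CA9, chr9:35673897-35673926, plus strand, 31 to 2 bases before the start: ctcgtttccaatgCACGTacagcccgtaca
PDK1, chr2:172556060-172556089, plus strand, 30 to 1 bases before the second start: ccctgctgcccgcCACGTccctCACGTacc
EGLN1, chr1:231422288-231422317, minus strand, 30 to 1 bases before the start: ccgcggggccgtggtgtACGTGcagagcgc

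BNIP3 had the densest cluster, with 4 matches in the window and 6 in its whole promoter. In the window a pair of matches overlap on opposite strands of the palindrome CACGTG, and the others lie a few bases away. ANKRD37 had 3 matches, and a pair of them lies on opposite strands of the palindrome CACGTG. ADM, the gene with the highest fold change, had a single GCGTG. EGLN3 had none in its window and was a DEG, whereas EPAS1 had 1 and was not called. HIF1A and PDK1 each had 1 of 2 starts without a match, and for PDK1 that was the start of the deposited gene. The number of core matches did not order the changes among these 9 genes.

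**Figure D2:**
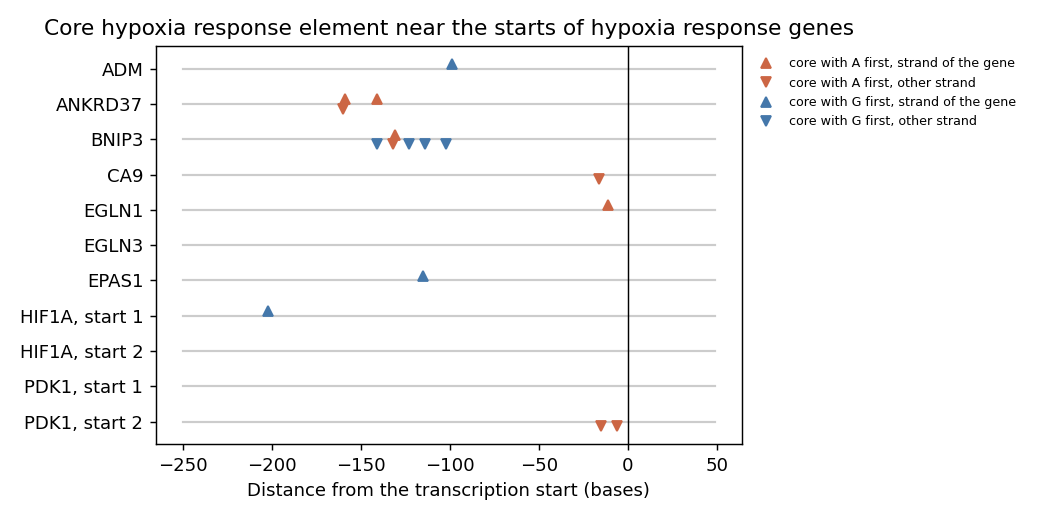
Position of each ACGTG or GCGTG match (bases from the RefSeq start, which is 0) in the 11 promoters of 9 hypoxia response genes, with upward triangles for the strand of the gene, downward ones for the other strand, orange for the ACGTG form and blue for GCGTG. BNIP3 has 6 matches, all before the start, and EGLN3 has none.

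Of the α subunits, HIF1A was called higher and EPAS1 was not. HIF1A (ENSG00000100644, chromosome 14, 61695513 to 61748259) stood at 180.0, 180.3 and 177 CPM in shNC and at 232, 237 and 225 CPM in shNUF2. The shNUF2 libraries were all above the shNC libraries, with a log2 fold change of 0.37 (SE 0.043, adjusted p = 2.69e-08), or 1.29-fold. This is a modest rise, and 26.7% of all genes tested changed at least as far upward. EPAS1 (ENSG00000116016, chromosome 2, 46293667 to 46386697) stood at 578, 592 and 587 CPM in shNC and at 612, 579 and 616 CPM in shNUF2. The groups overlapped, and the log2 fold change of 0.04 (SE 0.041, adjusted p = 0.374) had a 95% confidence interval of -0.04 to 0.12. A rise of EPAS1 as large as that of HIF1A lay outside this interval.

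Per gene length, EPAS1 was the more abundant of the pair. Its level was 81.3 ± 1.40 FPKM (SD, n = 3) in shNC and 81.5 ± 2.19 in shNUF2, while HIF1A rose from 35.2 ± 0.406 to 44.4 ± 1.32 FPKM. The FPKM ratio of EPAS1 to HIF1A was 2.27, 2.32 and 2.34 in shNC and 1.86, 1.73 and 1.93 in shNUF2. All shNUF2 ratios were below all shNC ratios, a difference of -0.33 on the log2 scale (exact two-sided permutation p = 0.10, the smallest possible).

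Of the sensors, EGLN3 (PHD3, ENSG00000129521, chromosome 14, 33924227 to 34462774), the hydroxylase known for strong induction by hypoxia, doubled. It stood at 18.4, 16.9 and 16.1 CPM in shNC and at 38.4, 34.2 and 35.2 CPM in shNUF2. The groups were far apart relative to their spread, with a log2 fold change of 1.07 (SE 0.091, adjusted p = 6.23e-11), or 2.10-fold. The 95% confidence interval of 0.89 to 1.26 spanned the DEG threshold of 1. The deposited span of EGLN3 overlaps SPTSSA on the same strand for 29453 of its 538548 bases.

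EGLN1 (PHD2, ENSG00000135766, chromosome 1, 231363751 to 231422287), regarded as the main oxygen sensor, was called but poorly determined. It stood at 18.8, 18.9 and 35.0 CPM in shNC and at 46.7, 37.3 and 28.4 CPM in shNUF2. shNC replicate 3 lay above shNUF2 replicate 3, so the groups overlapped. The log2 fold change was 0.61 (SE 0.165, adjusted p = 0.00193), and the exact two-sided permutation test gave p = 0.20. DESeq2's Wald test ended the call (adjusted p = 0.113). Without shNC replicate 3 the log2 fold change was 0.98, and without shNUF2 replicate 1 it was 0.42 (adjusted p = 0.0474). The highest shNC library was 1.86 times the lowest, a spread that 0.274% of the 10217 genes with a mean of at least 100 reads reached, and the corresponding ratio in shNUF2 was 1.65 (0.460%). Nearly the whole span of EGLN1, 58491 of 58537 bases, is shared on the same strand with AL445524.2, listed at 0 reads in every library. The way the counting handled overlapping genes was not given in the sources used here, so the EGLN1 count is uncertain.

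The balance between the sensors was not resolved. The FPKM ratio of EGLN3 to EGLN1 was 0.714, 0.653 and 0.336 in shNC and 0.601, 0.669 and 0.907 in shNUF2. These ranges overlapped (log2 difference 0.41, exact two-sided permutation p = 0.50), and without shNC replicate 3 the difference was 0.06. EGLN2, a further hydroxylase, had a log2 fold change of 0.02 (adjusted p = 0.887). Of its span, 9423 of 9439 bases are shared on the same strand with RAB4B-EGLN2, listed at 0 reads, so its count is uncertain too.

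ADM (ENSG00000148926, chromosome 11, 10305073 to 10307397), which encodes the vasodilator peptide adrenomedullin, had the largest change of the 10 genes. It stood at 233, 167 and 177 CPM in shNC and at 939, 879 and 898 CPM in shNUF2. The lowest shNUF2 library was several times the highest shNC library. The log2 fold change was 2.24 (SE 0.073, 95% confidence interval 2.09 to 2.39, adjusted p = 1.35e-19), or 4.71-fold, and 2.17% of the genes tested changed at least as far upward. Transcripts of its receptor were near 0: CALCRL had at most 9 reads, RAMP1 at most 2, RAMP2 at most 5 and RAMP3 none in any library.

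NDRG1 (ENSG00000104419, chromosome 8, 133237175 to 133302022), a cytoplasmic protein linked to differentiation and stress, was the most abundant of the 10 genes. It stood at 2612, 1945 and 2025 CPM in shNC and at 5433, 4818 and 5077 CPM in shNUF2. The log2 fold change was 1.22 (SE 0.068, adjusted p = 1.31e-14), or 2.33-fold. In FPKM it went from 185 ± 29.8 to 420 ± 21.4 (SD, n = 3), and its relatives NDRG2, NDRG3 and NDRG4 were not called, although without shNC replicate 1 NDRG2 was called lower (adjusted p = 0.0430).

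BNIP3 (ENSG00000176171, chromosome 10, 131966455 to 131982013), a mitochondrial outer membrane protein that promotes mitophagy, stood at 199, 174 and 174 CPM in shNC. In shNUF2 it stood at 489, 449.9 and 456 CPM, clear of every shNC library. The log2 fold change was 1.35 (SE 0.051, adjusted p = 3.24e-18), or 2.55-fold. Its paralog BNIP3L (NIX), which has the same function, rose with a log2 fold change of 1.08, from 109.9 to 226 FPKM, and was the more abundant of the pair in both groups. BNIP3 has 39 annotated pseudogenes, between which reads could be divided. Mitochondrially encoded transcripts took 3.57 to 3.85% of reads in shNC and 2.38 to 2.63% in shNUF2, and the part of this shift in the BNIP3 result was not tested.

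CA9 (ENSG00000107159, chromosome 9, 35673918 to 35681159), a membrane carbonic anhydrase that acidifies the cell surroundings, rose less. It stood at 77.4, 63.0 and 66.3 CPM in shNC and at 107, 102 and 100.1 CPM in shNUF2. The groups were separate, with a log2 fold change of 0.58 (SE 0.062, adjusted p = 5.20e-09), or 1.50-fold. CA12, the other membrane carbonic anhydrase of tumours, rose with a log2 fold change of 0.51, and CA2 had 0 reads in every library.

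ANKRD37 (ENSG00000186352, chromosome 4, 185396021 to 185400628), a small ankyrin repeat protein, was the least abundant by count. It had 129 to 207 reads in shNC and 252 to 335 in shNUF2, or 11.1, 8.07 and 12.0 CPM against 24.9, 19.4 and 19.8 CPM. The log2 fold change was 1.03 (SE 0.134, adjusted p = 1.58e-07), or 2.05-fold. Its 95% confidence interval ran from 0.76 to 1.31 and so also included 1.

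PDK1, the kinase that shuts pyruvate dehydrogenase and so keeps pyruvate out of the mitochondria, rose little. It stood at 114, 106 and 106 CPM in shNC and at 148, 137 and 137 CPM in shNUF2. The log2 fold change was 0.37 (SE 0.049, adjusted p = 2.34e-07), or 1.29-fold. The other kinases of pyruvate dehydrogenase moved in different directions: PDK3 rose (log2 fold change 0.49), PDK4 rose (0.59) and PDK2 fell (-0.48). PDP1, the phosphatase that reverses the kinases, rose more, with a log2 fold change of 1.80 from 192 to 245 reads in shNC to 591 to 746 in shNUF2. PDHA1, the subunit they act on, fell (-0.34), and PDP2 was not called.

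**Figure D3:**
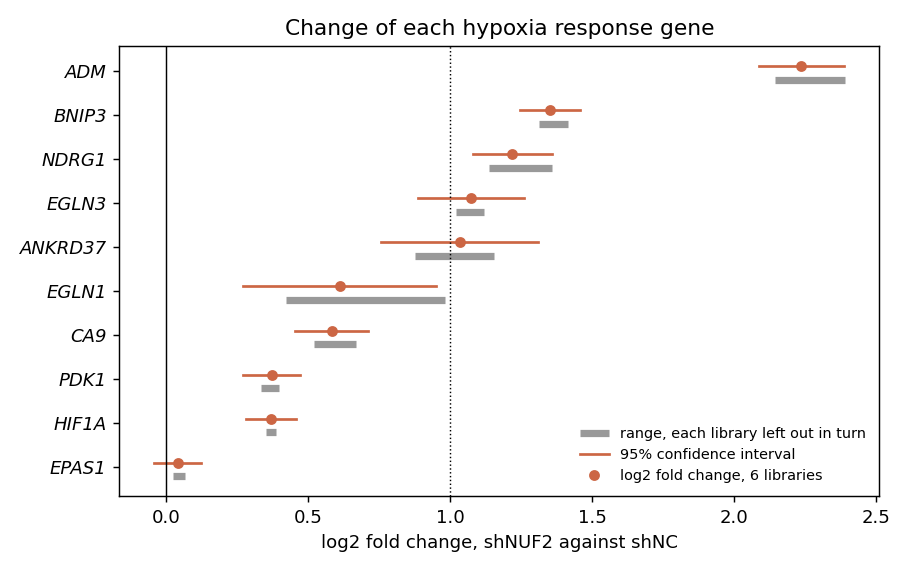
Log2 fold change of each of the 10 hypoxia response genes (shNUF2 against shNC, edgeR) with its 95% confidence interval as a line, the range with each library left out in turn as a grey bar, and the DEG threshold of 1 as a dotted line. ADM lies at 2.24, the other DEGs between 1.03 and 1.35, and the interval of EPAS1 includes 0.

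The order of levels per gene length shifted with these changes. In shNC the order of mean FPKM was NDRG1, ADM, EPAS1, CA9, HIF1A, BNIP3, PDK1, ANKRD37, EGLN1 and EGLN3. The ranges of ADM and EPAS1, of HIF1A and BNIP3, and of ANKRD37 and EGLN1 overlapped, so those neighbours did not differ beyond their spread. In shNUF2 BNIP3 came next after NDRG1 and ADM, ahead of EPAS1, CA9 and HIF1A, and ANKRD37 stood beside PDK1 with an overlapping range. ADM went from 83.7 ± 15.0 to 384 ± 9.26 FPKM (SD, n = 3) and BNIP3 from 34.6 ± 2.64 to 86.1 ± 3.18, whereas EGLN3 remained last at 2.35 ± 0.150 and 4.81 ± 0.252. The libraries numbered 1 stood highest in their group for several of the 10 genes. shNC replicate 1 was highest for 6 of 10 and shNUF2 replicate 1 for 8 of 10, beside 34.7% and 37.0% of all genes tested. Leaving out any 1 library kept the log2 fold change of ADM between 2.14 and 2.39, of NDRG1 between 1.14 and 1.36 and of BNIP3 between 1.31 and 1.42, and the range of ANKRD37, 0.88 to 1.15, crossed the DEG threshold.

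**Figure D4:**
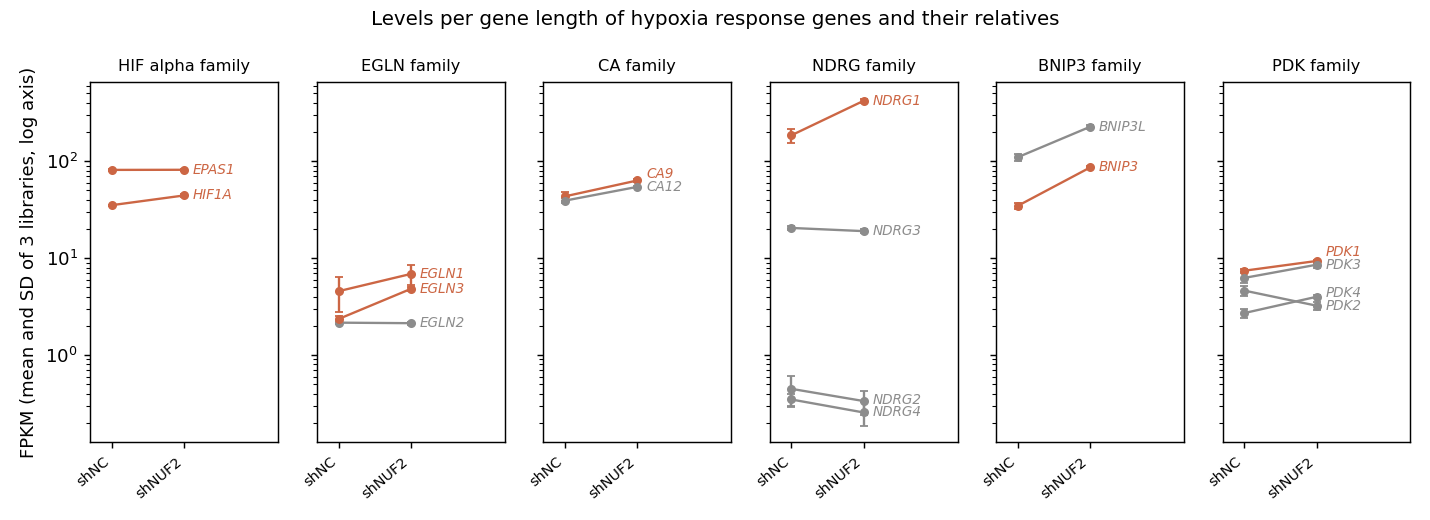
Deposited FPKM (log axis, mean and SD of 3 libraries) in shNC and shNUF2 for 6 families, with the hypoxia response genes in orange and their relatives in grey. NDRG1 goes from 185 to 420 FPKM and BNIP3 from 34.6 to 86.1, while EPAS1 lies at 81.3 and 81.5.

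In the rest of the oxygen sensing machinery, 13 of 14 further genes could be tested, 3 were called higher, 3 lower and 7 not called, with a median log2 fold change of -0.06. Calls in either direction were no more frequent than the 33.9% higher and 33.8% lower of all genes tested, so the counts are not a result about this list. ARNT, the partner of both α subunits, was not called (log2 fold change 0.03, 95% confidence interval -0.07 to 0.13, adjusted p = 0.578). Its relative ARNT2 rose from 48 to 51 reads to 145 to 162 reads (log2 fold change 1.84, SE 0.175), but stayed far less abundant, at 1.43 FPKM beside 20.5 for ARNT. CITED2, a HIF target that competes with the α subunits for the coactivators EP300 and CREBBP, rose with a log2 fold change of 1.45 (SE 0.058). VHL rose (0.25), while P4HTM, a membrane-bound prolyl hydroxylase, fell (-0.94, SE 0.089), as did ELOB (-0.26), a partner of VHL, and CREBBP (-0.19). HIF3A had 3 to 8 reads and was not tested, and HIF1AN, the asparaginyl hydroxylase, was not called (-0.06). Among the 16 relatives of the hypoxia genes, 11 were tested, 5 were called higher, 2 lower and 4 not called, with a median of -0.02, beside 33.9% higher and 33.8% lower among all genes tested.

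Known HIF targets outside the 10 genes were counted in 3 lists, whose members were set with earlier results of these data known. Of 51 genes, 49 were tested, 43 were called higher, 3 lower and 3 not called, beside 33.9% and 33.8% of all genes. There were 21 DEGs higher and 1 lower, beside 9.41% and 4.16% of all genes tested. The median log2 fold change was 0.84, beside -0.01 over all genes tested. These shares of all genes are also the background for each of the 3 lists below.

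In glucose metabolism, 14 of 16 genes were called higher, 1 lower and 1 not called (median 0.86). PFKFB3, which makes the activator of glycolysis fructose 2,6-bisphosphate, led with 465 to 561 reads in shNC and 2137 to 2588 in shNUF2 (log2 fold change 2.38, SE 0.064). The hexokinases HK2 (1.82) and HK1 (1.27), the enolase ENO2 (1.65), the glucose transporter SLC2A3 (1.43) and the aldolase ALDOC (1.08) were DEGs. ALDOC shares its whole span of 3834 bases on the same strand with AC005726.1, listed at 0 to 1 reads, so its count is uncertain as for EGLN1. The classical target LDHA, lactate dehydrogenase, was not called (0.04, 95% confidence interval -0.04 to 0.12), ENO1 was barely called (0.10, adjusted p = 0.0226) and lost the call under 7 of the alternatives, and the lactate exporter SLC16A3 fell (-0.34). ALDOA had only 36 to 76 reads and shares its span with another listed gene, so its call is uncertain, and it lost the call without shNC replicate 1 or 3 or shNUF2 replicate 1 or 3 (log2 fold change 0.45 to 0.56, beside 0.56).

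In the list for matrix and vessels, 13 of 13 genes were called higher (median 0.63). LOX, which cross-links collagen, rose with a log2 fold change of 1.99 (SE 0.051), and the collagen hydroxylases P4HA2 (1.80) and PLOD2 (1.44) and the lipoprotein lipase inhibitor ANGPTL4 (1.35) were also DEGs. VEGFA, the angiogenic factor most often used to read HIF activity, rose by a log2 fold change of 0.38 (SE 0.050). PLOD1 (0.23) and STC2 (0.12) changed least, and STC2 lost its call under 2 alternatives.

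Of the remaining targets, 20 of 22 were tested, 16 were called higher, 2 lower and 2 not called (median 1.01). PLIN2, which coats lipid droplets, rose with a log2 fold change of 1.70, and the lipid droplet protein HILPDA with 1.22. The oxidase ERO1A (1.69), PPFIA4 (1.39), the histone demethylase KDM3A (1.29), WSB1 (1.27), INSIG2 (1.19), FAM162A (1.06), RAB20 (1.02) and FUT11 (1.00) were further DEGs. BHLHE41, a transcriptional repressor, had 0, 1 and 1 reads in shNC and 18, 12 and 26 in shNUF2, too few in shNC for a meaningful fold. DDIT4 (REDD1), a hypoxia-induced inhibitor of mTORC1, went the other way, from 9251, 9750 and 10639 reads to 3659, 3573 and 4412 (log2 fold change -1.16, SE 0.044). ZNF395 was lower by a small margin (-0.19) and lost its call without shNC replicate 1 or without shNUF2 replicate 1 (-0.14 each), SPAG4 was not called, TFRC was not called (-0.08) but was called lower under 5 of the alternatives, among them without shNC replicate 1 (-0.11), and TF and EPO were not tested.

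**Figure D5:**
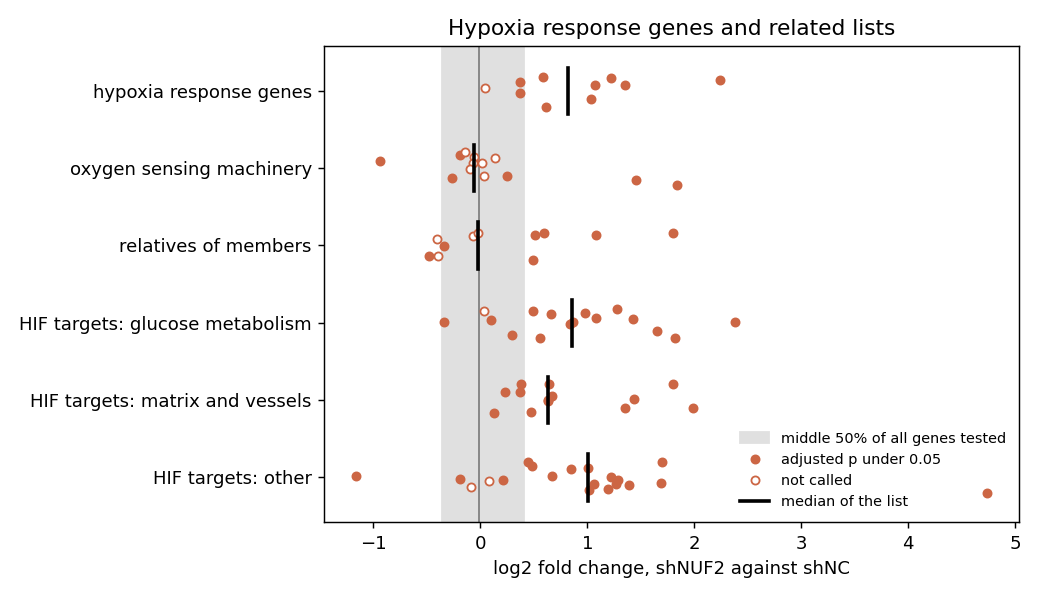
Log2 fold change (shNUF2 against shNC) of each tested gene in the hypoxia response genes and the 5 related gene lists, 1 point per gene, filled where the adjusted p was under 0.05, with a bar at each list's median and a grey band over the middle 50% of all genes tested. The 3 lists of HIF targets lie mostly above 0, with DDIT4 at -1.16 as the lowest, and the fitted value of BHLHE41 rests on at most 1 read per shNC library.

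Since these are bulk libraries, more transcript per cell and more cells that express a gene cannot be told apart. RNA was measured, and neither HIF proteins nor their binding to DNA were.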

How the data were processed

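Stranded mRNA libraries were sequenced on an Illumina NovaSeq instrument. The submitters' processing notes name cutadapt, HISAT, HTSeq and GRCh38.p13; versions, annotation release and strand setting are not given in the sources used here. The authors deposited raw read counts per gene and FPKM values, which are counts scaled to gene length and library size. From the deposited counts, edgeR 4.0.16 (R 4.3.3) fitted a quasi-likelihood model to all 6 libraries after filterByExpr (minimum count 10) and TMM scaling, and p-values were adjusted across the tested genes by Benjamini and Hochberg's method (threshold 0.05). The script was tested on simulated data. Levels between genes were compared in the deposited FPKM. Single values used exact two-sided permutation tests. Promoters are RefSeq sequences (GRCh38.p14).

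The 10 genes and all lists were chosen with earlier results of these data known. Named were the 10 genes, NUF2, relatives in family comparisons, and from each list the 2 called genes with the largest and the 2 with the smallest log2 fold change and any gene beyond a log2 fold change of 1. LDHA, VEGFA, ARNT, VHL, CREBBP, HIF1AN, ALDOA, TFRC, SPAG4, the markers and the genes not tested were named after their values were seen. The labels number the replicates without saying whether same-numbered libraries were paired, and the main fit used no pairing. Over the genes tested, the correlations of deviations between same-numbered libraries were 0.0205, 0.00456 and -0.0298. Such correlations cannot decide whether the samples were paired.

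The alternatives were DESeq2 1.42.0 (size factors, or its Wald test), upper-quartile scaling, library totals, no filter, at least 1 CPM in every library, a replicate block, TREAT, limma 3.58.1 on log2(FPKM + 1) or log2(FPKM + 0.1), and leaving out each library.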

Additional observations from a re-analysis of the deposited data

How the results depend on the processing

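Across 15 settings per gene, 149 of 150 results of single hypoxia genes stayed on their side of the threshold. The exception was EGLN1 under DESeq2's Wald test (log2 fold change 0.64, adjusted p = 0.113). Of 95 other genes (the tested list genes and markers, NUF2, and the genes of the annotation list named after the report), 1390 of 1421 results stayed on theirs. In 21 results a call was lost, all of ENO1, ALDOA, KDM4C, STC2, ZNF395, EPCAM or KRT7, and in 10 a call was gained, all of TFRC, EP300, CUL2 or NDRG2. No called gene reversed. DEG counts moved under some alternatives, and the cause was not tested: 756 genes were DEGs higher with at least 1 CPM in every library and 430 with limma on log2(FPKM + 1), beside 1212. The hypoxia genes that were DEGs numbered 3 with limma on log2(FPKM + 1) and 3 with TREAT, beside 5. The number of all genes higher with TREAT is not given here. DEGs lower numbered 206 with limma on log2(FPKM + 1) and 329 with TREAT, beside 536. For the remaining HIF targets, the genes called lower ranged from 1 to 2 when single libraries were left out, and the 1 came without shNUF2 replicate 1, when ZNF395 lost its call. With the replicate block, 9 hypoxia genes were called higher and the EGLN1 log2 fold change was 0.63. No scaling moved the median of all genes by more than 0.1, with a range of -0.0491 (library totals) to -0.00427 (DESeq2). ANKRD37 and EGLN3, with 129 to 530 reads per library, had wider errors than HIF1A or EPAS1. Intervals cover the spread between these libraries.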

Other observations

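The deposited annotation assigns 182 genes to the response to hypoxia. This broader list was counted after the data were examined. Outside the lists of the report it held 156 genes, of which 118 were tested, 57 were called higher and 35 lower in shNUF2 (edgeR, adjusted p under 0.05), beside 33.9% and 33.8% of all genes tested. There were 21 DEGs higher and 2 lower, beside 9.41% and 4.16% of all genes tested, and the median log2 fold change was 0.19. The following genes were picked after their values were seen. HMOX1, which degrades heme, went from 774, 817 and 834 reads to 2928, 2564 and 3075 (log2 fold change 2.01, SE 0.054). SOD2, the mitochondrial superoxide dismutase, rose with a log2 fold change of 2.13 (SE 0.057). The transcription factor ETS1 rose by 2.19 and the growth factor BMP2 by 2.53 on the log2 scale. ALDH3A1, an aldehyde dehydrogenase, fell from 97, 125 and 128 reads to 22, 33 and 31 (-1.83, SE 0.214), and AJUBA fell with a log2 fold change of -1.05.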
